A study of Mus musculus with 7 samples.

Results

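The nuclear genes of the mitochondrial ribosome (mitoribosome) were examined in the livers of mice lacking TET1. They were taken as the genes whose symbol is Mrpl or Mrps followed by a number and at most 1 letter, with at least 10 counts in every library. All 78 genes with such a symbol met the count minimum, out of 51426 genes in the joined tables, and all 78 were among the 14754 genes kept for testing by edgeR's low-count filter. The minimum excluded no gene. The gene nearest to it was Mrps36, with 45 counts in its lowest library, followed by Mrpl23 with 76 and Mrpl46 with 110.

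Liver RNA had been sequenced from male mice labelled C57BL/6J that received a high-fat diet (HFD) for 16 weeks from 8 weeks of age. The 3 WT mice had the intact Tet1 gene and the 4 TET1 KO mice lacked it in the whole body, so that liver and every other tissue were affected. The study's methods list the knockout strain as B6;129S4-Tet1tm1.1Jae/J. Each liver gave 1 library of between 15005277 and 22746138 counts, and no chow-fed mice were among the samples used here, so every value is one on HFD.

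Mitochondria carry their own small genome, which encodes core subunits of the respiratory chain and of ATP synthase. The mRNAs of that genome are translated inside the organelle by the mitoribosome, whose rRNAs are encoded in the mitochondrial genome and whose proteins are encoded in the nucleus, made in the cytosol and imported. The small subunit (Mrps genes) decodes the mRNA, and the large subunit (Mrpl genes) joins the amino acids. Some of the proteins descend from those of the bacterial ribosome and others are particular to mitochondria. The hepatocyte is rich in mitochondria, which oxidise fatty acids. Of the 78 genes, 51 encode large subunit proteins, among them Mrps18a and Mrps30 despite their names, and 26 encode small subunit proteins. The remaining one, Mrps36, is now assigned to the 2-oxoglutarate dehydrogenase complex of the citric acid cycle.

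The genes lay on 17 chromosomes, with 11 on chromosome 11 and 8 on chromosome 17. RefSeq (GRCm38.p6) promoter windows, running from 250 bases before to 50 bases after an annotated start, were found for 69 of the 78. CpG dinucleotides were dense there. The median ratio of observed to expected CpG was 0.82 over the 75 windows of these genes and 0.384 over all 32851 windows of the table, and 90.7% and 35.8% of the windows, respectively, exceeded 0.6. TET1 is an enzyme that oxidises 5-methylcytosine at such dinucleotides. DNA methylation was not analysed here. The windows were searched on both strands for letters recognised by 3 factors known for nuclear genes of mitochondrial proteins. The ETS family motif CCGGAAG, to which GABP binds, was present in 26 of the 69 genes (37.7%) and in 9.93% of the 27025 genes of the table. The NRF1 motif GCGCATGCG was present in 7 genes (10.1%, against 1.95%), and the YY1 motif AAGATGGCG in 8 (11.6%, against 1.64%). In 0 of the windows did the letters of different factors overlap. Genes with and without a motif had close median log2 fold changes between the genotypes, 0.18 and 0.12 for ETS, 0.16 and 0.14 for NRF1, and 0.14 and 0.14 for YY1. A match of letters is a description of the window and not a measured binding site. All 3 motifs contain a CpG, and the table also holds genes that were not tested here. The shares were not compared among windows of like CpG density.

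The 250 bases before the start, 5′ to 3′ on the strand of the gene, are shown for the 2 genes with the smallest p-values, Mrpl52 (chr14:54426659-54426908, plus strand) and Mrps15 (chr4:126046678-126046927, plus strand), for the 2 genes whose TET1 KO values were all below the WT values, Mrpl3 (chr9:105053018-105053267, plus strand) and Mrpl16 (chr19:11770165-11770414, plus strand), and for Mrpl39 (chr16:84735245-84735494, minus strand) as an example with NRF1 letters. The capitals mark the ETS letters in Mrpl52 and Mrpl3 and the NRF1 letters on both strands in Mrpl39, while Mrps15 and Mrpl16 had none of the 3 motifs in this stretch.
Mrpl52: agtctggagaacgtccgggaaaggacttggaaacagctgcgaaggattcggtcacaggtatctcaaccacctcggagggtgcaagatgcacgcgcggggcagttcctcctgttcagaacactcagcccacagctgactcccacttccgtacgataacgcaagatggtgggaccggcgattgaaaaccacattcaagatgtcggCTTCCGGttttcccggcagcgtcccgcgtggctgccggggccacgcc
Mrps15: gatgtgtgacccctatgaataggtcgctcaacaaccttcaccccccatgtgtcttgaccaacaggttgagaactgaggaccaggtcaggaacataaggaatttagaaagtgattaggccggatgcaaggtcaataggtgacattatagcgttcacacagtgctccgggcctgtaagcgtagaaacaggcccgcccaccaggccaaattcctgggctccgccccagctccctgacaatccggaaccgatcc
Mrpl3: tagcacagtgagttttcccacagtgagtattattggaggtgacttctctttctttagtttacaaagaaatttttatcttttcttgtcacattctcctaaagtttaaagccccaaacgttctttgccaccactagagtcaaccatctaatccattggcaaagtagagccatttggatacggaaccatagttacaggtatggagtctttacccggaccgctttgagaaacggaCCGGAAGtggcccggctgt
Mrpl16: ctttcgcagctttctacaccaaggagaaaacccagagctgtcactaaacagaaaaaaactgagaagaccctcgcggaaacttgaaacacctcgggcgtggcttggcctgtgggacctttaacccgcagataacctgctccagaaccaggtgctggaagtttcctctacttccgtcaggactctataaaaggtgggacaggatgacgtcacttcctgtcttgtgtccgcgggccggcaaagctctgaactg
Mrpl39: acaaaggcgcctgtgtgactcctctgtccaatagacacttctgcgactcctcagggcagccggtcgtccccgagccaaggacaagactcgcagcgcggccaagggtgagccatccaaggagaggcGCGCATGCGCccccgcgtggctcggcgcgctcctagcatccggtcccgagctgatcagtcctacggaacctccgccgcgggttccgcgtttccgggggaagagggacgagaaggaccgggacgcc
The ETS letters began 47 bases before the start of Mrpl52 and 19 bases before that of Mrpl3, and these genes had log2 fold changes of 0.70 and -0.36. Mrpl39, with NRF1 letters from 125 bases before its start, had a log2 fold change of 0.03.

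All 78 genes were expressed in the livers. Levels are given as CPM, the count scaled to library size and between libraries by TMM. They averaged from 3.06 for Mrps36 to 90.5 for Mrpl12, with a median of 30.6 over the 78 genes. Divided by the summed exon length, available for 77 genes, the levels ran from 2.4 CPM per kilobase for Mrps36 to 134 for Mrpl52, with a median of 15.8. The median of all 13469 tested genes with a length was 3.51, and 73 of the 77 genes (94.8%) lay above it. On this per-length scale Mrpl52 was followed by Mrpl14, a protein at the subunit interface (63.2), and Mrpl42, a large subunit protein particular to mitochondria (62.9). The lowest values on this scale were those of Mrps36 (2.4), Mrpl19 (2.53) and Mrps25 (2.63). Mrpl19 is a large subunit protein with a bacterial counterpart, and Mrps25 a small subunit protein particular to mitochondria. The lengths unite the exons of all annotated transcripts and were 5450 bases for Mrpl19 and 6576 for Mrps25. This order therefore depends on the annotation, and by CPM Mrpl23 was lower than Mrpl19 and Mrps25. The spread within a genotype was small for most genes. The coefficient of variation of CPM had a median of 10.1% among the WT livers, from 1.45% for Mrpl15 to 36.3% for Mrpl23, and of 11% among the TET1 KO livers, from 3.17% for Mrpl39 to 32.6% for Mrpl46.

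No gene of the family passed the test between TET1 KO and WT, while more of them had higher than lower values in the knockout. At a Benjamini-Hochberg adjusted p under 0.05 from edgeR's quasi-likelihood test, 0 of the 78 genes were called, where 2.02% of all tested genes were called in either direction. In simulated data edgeR called 3 of 66 genes changed by a log2 of 0.5, so 0 calls do not exclude changes of that size. DESeq2 called 2 genes higher, Mrpl52 (adjusted p = 0.015) and Mrps15 (adjusted p = 0.0491), or 2 of 78 where it called 4.64% of all genes higher. At an unadjusted p under 0.05 from edgeR, 15 genes (19.2%) were higher and 2 (2.56%) lower, against 13.6% and 12.7% of all tested genes. With library size as the only scaling, 7 genes (8.97%) were higher and 5 (6.41%) lower, against 8.87% and 18.3% of all tested genes under that scaling. At an adjusted p under 0.1, 4 genes (5.13%) were higher and 0 lower, against 5.7% and 5.59%. The fold change was above 0 for 58 of the 78 genes (74.4%), against 51.1% of all tested genes. The median log2 fold change of the family was 0.15, with an interquartile range from -0.01 to 0.27, and that of all tested genes 0.01.

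The values of the TET1 KO and WT livers did not overlap for 23 of the 78 genes. All TET1 KO values were above all WT values for 21 of them (26.9%, against 11.7% of all tested genes) and below for 2 (2.56%, against 10.8%). The summed level of the 78 genes was 2544, 2295 and 2499 CPM in WT replicates 1 to 3 and 2687, 2776, 2827 and 2654 CPM in TET1 KO replicates 1 to 4. Under TMM scaling these sums did not overlap, and their means were 2446 ± 133 CPM (SD, n = 3) in WT and 2736 ± 79.7 CPM (SD, n = 4) in TET1 KO, a ratio of 1.12. Large subunit genes were summed to 1782, 1569 and 1728 CPM in WT and to 1927, 1952, 1984 and 1851 CPM in TET1 KO, also without overlap under TMM. Small subunit genes were summed to 759, 724 and 768 CPM in WT and to 756, 821, 839 and 800 CPM in TET1 KO, where TET1 KO replicate 1 lay among the WT livers.

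The size of this difference depended on the scaling and on single livers. With library size as the only scaling, the median log2 fold change of the family was 0.05 and that of all genes -0.08, the ratio of the summed levels was 1.05, 50 genes (64.1%) were above 0, against 42.7% of all tested genes, and 12 (15.4%) were higher without overlap, against 7.46%. The summed counts of the 78 genes, as a share of each library, were then 0.265%, 0.243% and 0.252% in WT and 0.263%, 0.263%, 0.268% and 0.269% in TET1 KO. These shares overlapped, with WT replicate 1 above TET1 KO replicates 1 and 2, and those of the large subunit genes overlapped as well, with 0.186% in WT replicate 1 and 0.185% in TET1 KO replicate 2. Relative to all genes the family's median stood 0.13 higher under TMM and under library size alone, and 0.09 higher without WT replicate 2. Without WT replicate 2 the median itself was 0.10, and 6 genes (7.69%) were higher at an unadjusted p under 0.05 and 0 lower, against 6.96% and 6.91% of all tested genes. Without WT replicate 3, 7 genes (8.97%) were higher and 0 lower, against 9.91% and 11.3%. Without TET1 KO replicate 2, 7 (8.97%) were higher and 2 (2.56%) lower, against 11.2% and 11.6%, and without TET1 KO replicate 3, 9 (11.5%) were higher and 3 (3.85%) lower, against 10% and 10.7%. The genes higher without overlap numbered 33 (42.3%) without WT replicate 1, where they made up 20.3% of all tested genes, since fewer livers separate more easily. WT replicate 2 had the lowest value of all 7 livers for 35 of the 78 genes (44.9%), against 26% of all tested genes. TET1 KO replicate 1 had the lowest value for 25 genes (32.1%, against 25.3%) and the highest for 15 (19.2%, against 25.6%), and without it the median was 0.18. In bulk tissue, fewer cells of a type and less RNA per cell cannot be told apart.

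**Figure D1:**
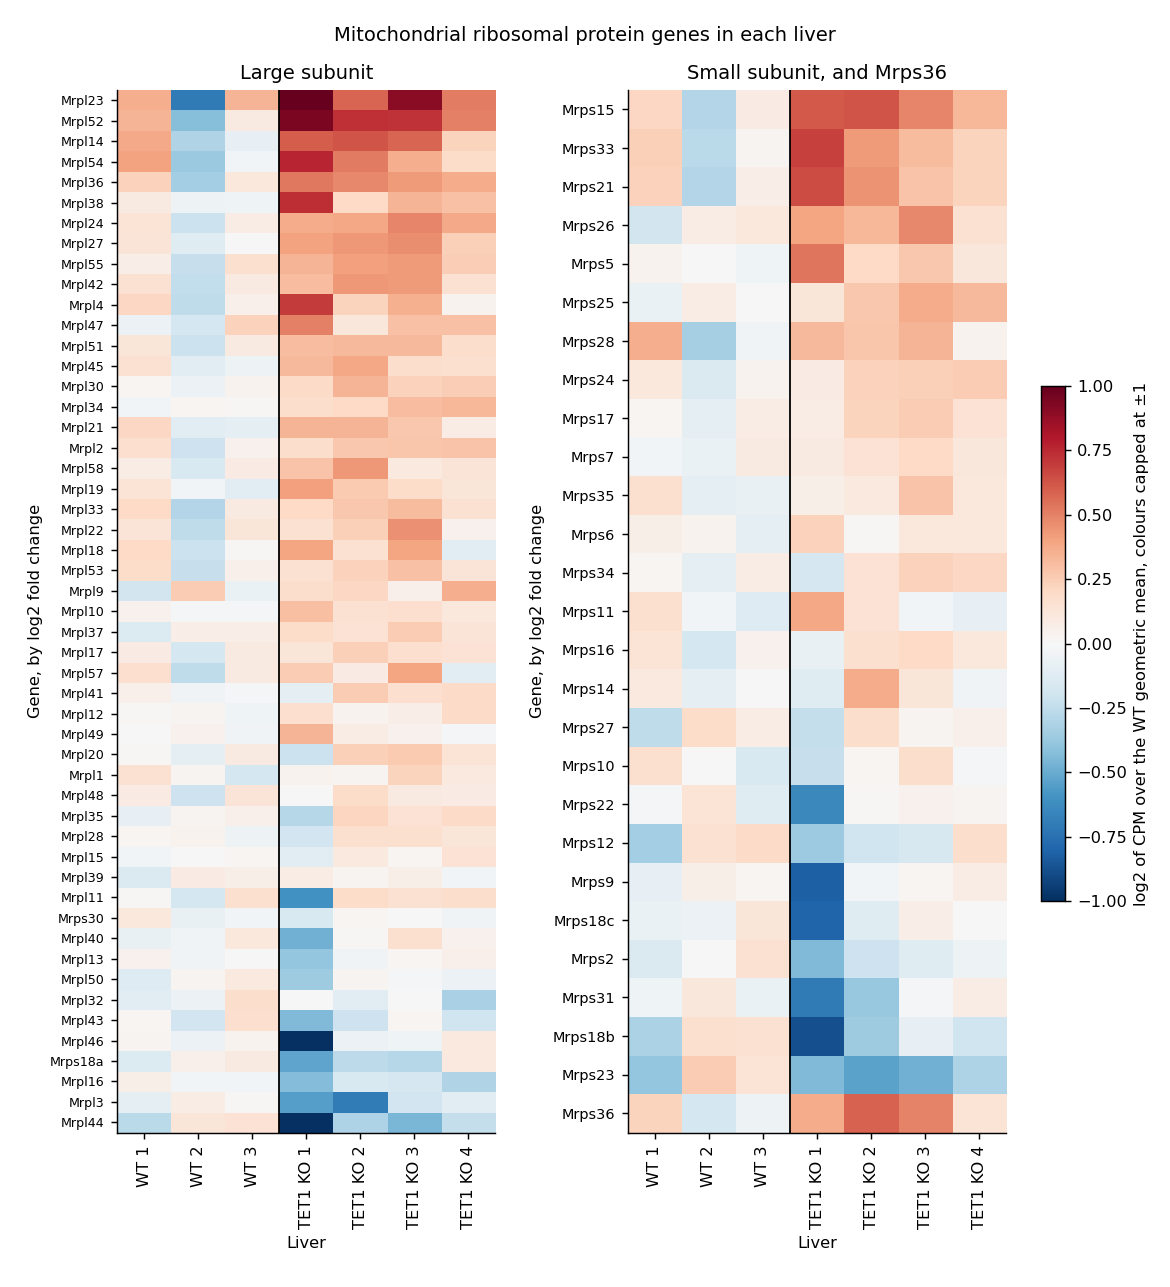
Each row is a gene and each column a liver, and the colour gives the log2 of its CPM over the geometric mean of the 3 WT livers, capped at ±1. Red (higher) cells fill most of the upper TET1 KO columns, WT replicate 2 is blue in many of the same genes, and TET1 KO replicate 1 holds both the darkest red and the darkest blue cells.

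The gene with the smallest p-value was Mrpl52, which encodes a large subunit protein particular to mitochondria (ENSMUSG00000010406, GRCm38 chr14:54426909-54429750). Its level was 50.2, 29.5 and 42.1 CPM in the WT livers and 76.3, 65.7, 65.3 and 56.3 CPM in the TET1 KO livers. All 4 knockout livers lay above the WT livers, with a log2 fold change of 0.70 (SE 0.18, adjusted p = 0.0671 from edgeR). When single livers were left out, the adjusted p ran from 0.046 without TET1 KO replicate 4 to 0.262 without WT replicate 2, where the log2 fold change was 0.51. These values rested on between 711 and 1276 counts a library.

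Mrps15, the counterpart of the bacterial small subunit protein S15, was at 31.8, 22.5 and 29.2 CPM in WT and at 42.1, 42.5, 38.6 and 34.6 CPM in TET1 KO. The groups did not overlap, and the log2 fold change was 0.50 (SE 0.15, adjusted p = 0.0854 from edgeR). Mrpl36, a small protein of the large subunit with a bacterial counterpart, was at 28.6, 19.3 and 26.3 CPM in WT and at 35.2, 34.1, 32.8 and 31.5 CPM in TET1 KO. Here too the groups did not overlap, and the log2 fold change was 0.43 (SE 0.15, adjusted p = 0.115 from edgeR). In all 3 genes WT replicate 2 was the lowest liver.

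The 5 lower genes with the smallest p-values had smaller differences or groups that overlapped. Mrps23, a small subunit protein particular to mitochondria, was at 14.2, 22.1 and 20.4 CPM in WT and at 13.7, 12.8, 13.3 and 15 CPM in TET1 KO. WT replicate 1 lay among the knockout livers, and the log2 fold change was -0.46 (SE 0.17, adjusted p = 0.122 from edgeR). Mrpl44, a large subunit protein related to ribonuclease III, was at 14.3, 18.7 and 19 CPM in WT and at 8.58, 13.9, 12.5 and 14.6 CPM in TET1 KO. Its log2 fold change, -0.48 (SE 0.20, adjusted p = 0.154 from edgeR), was the lowest of the family.

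The 2 genes whose TET1 KO values were all below the WT values were Mrpl3 and Mrpl16, large subunit proteins with bacterial counterparts. Mrpl3 was at 14.6, 16.4 and 15.7 CPM in WT and at 10.6, 9.58, 13.6 and 14.4 CPM in TET1 KO, a log2 fold change of -0.36 (SE 0.17, adjusted p = 0.199 from edgeR). Mrpl16 was at 37.9, 35.7 and 35.7 CPM in WT and at 26.9, 32.8, 32.4 and 29.5 CPM in TET1 KO, a log2 fold change of -0.26 (SE 0.12, adjusted p = 0.204 from edgeR). The remaining gene of the 5 was Mrps18b, described with its paralogs.

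**Figure D2:**
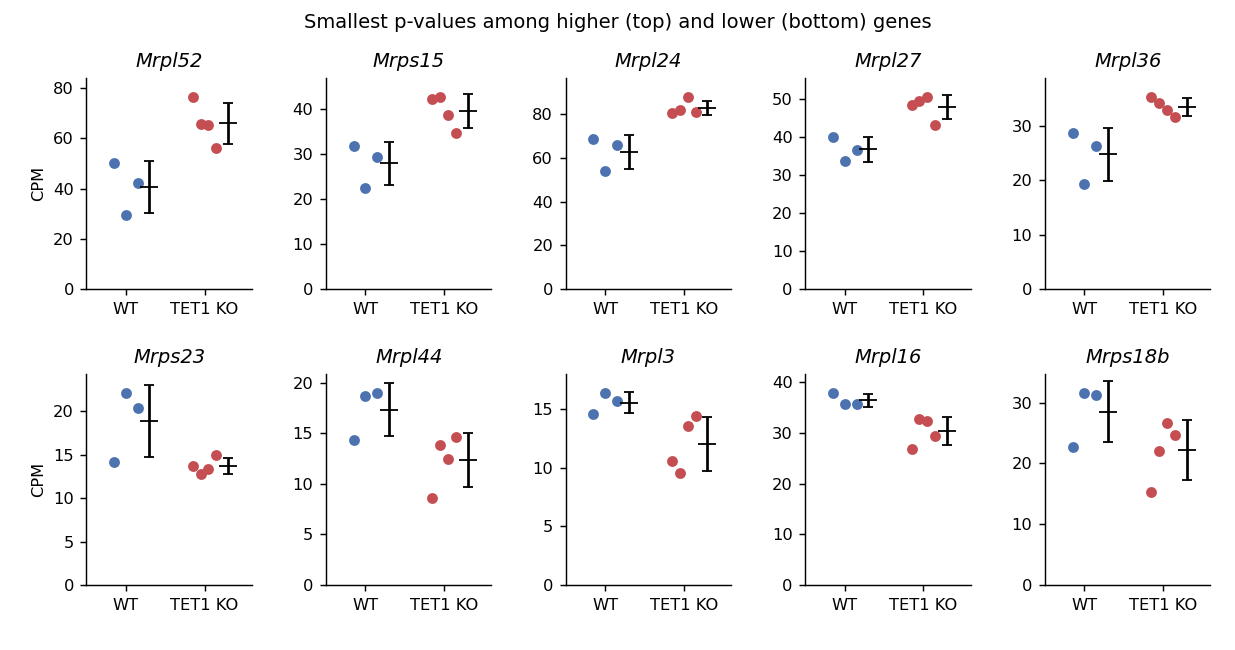
Points are the CPM of single livers (WT blue, TET1 KO red), with the mean ± SD beside them, for the 5 higher genes (top) and 5 lower genes (bottom) with the smallest p-values, on axes that start at 0. The groups are separate in the 5 upper panels and in those of Mrpl3 and Mrpl16.

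By structure, the large subunit genes had a median log2 fold change of 0.18 and were above 0 in 40 of 51 cases, and the small subunit genes had a median of 0.11 and were above 0 in 17 of 26. The 30 large subunit proteins with a bacterial counterpart had a median of 0.22 (26 above 0), and the 21 particular to mitochondria one of 0.14 (14 above 0). In the small subunit the medians were 0.11 for the 16 with a bacterial counterpart (11 above 0) and 0.06 for the 10 particular to mitochondria (6 above 0). The difference between these classes was not tested. The ratio of summed large to small subunit CPM was 2.35, 2.17 and 2.25 in WT and 2.55, 2.38, 2.36 and 2.31 in TET1 KO, and the groups overlapped.

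Of the proteins around the exit of the tunnel, through which the new chain leaves toward the inner membrane, 5 were listed. All 5 had log2 fold changes above 0, with 0 called. The list was chosen with earlier results of these data known and may not hold every protein of that site. Mrpl24 was at 68.5, 53.9 and 65.9 CPM in WT and at 80.6, 81.7, 87.6 and 81 CPM in TET1 KO. The groups were separate, with a log2 fold change of 0.40 (SE 0.13, adjusted p = 0.0949 from edgeR). Mrpl23 was at 6.6, 3.15 and 6.51 CPM in WT and at 10.7, 7.68, 9.62 and 7.33 CPM in TET1 KO, the highest log2 fold change of the family (0.71, SE 0.26, adjusted p = 0.128 from edgeR). It was also the least precise. Without WT replicate 2, its lowest liver, the log2 fold change was 0.42, below the 0.51 of Mrpl52 in the same livers. Mrpl23 held only 76 to 188 counts a library, while the pseudogene Mrpl23-ps1, a near copy, held 546 to 748 counts (log2 fold change 0.47, SE 0.15), so the division of reads between them is uncertain. Mrpl45, which in the assembled ribosome faces the inner membrane, had 31.2 ± 2.96 CPM in WT (SD, n = 3) and 37.3 ± 2.89 CPM in TET1 KO (SD, n = 4). Its groups were separate by a narrow gap, between 34.6 in the highest WT liver and 34.7 in the lowest TET1 KO liver. Mrpl47 had 12.3 ± 1.8 and 15.1 ± 1.69 CPM, and Mrpl22 20.7 ± 3 and 24.2 ± 3.04 CPM, both with overlapping groups.

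The 7 genes listed for the central protuberance, the part of the large subunit that reaches over to the small subunit, differed among themselves, with log2 fold changes from -0.21 to 0.41 and 0 called. This list, too, may not hold every protein of its part. Mrpl38 was at 63, 57 and 57.3 CPM in WT and at 98.7, 67.6, 74.9 and 72.2 CPM in TET1 KO (log2 fold change 0.41, SE 0.15). Mrpl27 was at 40, 33.6 and 36.5 CPM in WT and at 48.3, 49.4, 50.4 and 43.1 CPM in TET1 KO (log2 fold change 0.38, SE 0.12). Mrpl55 was at 18.6, 15.2 and 19.9 CPM in WT and at 22.5, 23.6, 23.9 and 21.1 CPM in TET1 KO (log2 fold change 0.35, SE 0.14). In these 3 genes the TET1 KO values were all above the WT values. The adjusted p from edgeR was 0.126, 0.0984 and 0.15, in that order.

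Mrpl18, the most abundant of the 7 by CPM, was at 88.2, 66.2 and 77.6 CPM in WT and at 101, 85.4, 101 and 71.5 CPM in TET1 KO, and its groups overlapped. Mrpl46 was at 15.7, 14.8 and 15.8 CPM in WT and at 14.8, 15 and 16.5 CPM in TET1 KO replicates 2 to 4, but at 6.89 CPM in replicate 1. Its log2 fold change of -0.21 (SE 0.25) was 0.00 without that liver. Mrpl40 was at 18.6, 19.1 and 21.1 CPM in WT and at 14, 19.7, 21.9 and 20.2 CPM in TET1 KO, and its log2 fold change went from -0.05 to 0.07 without replicate 1. Mrpl48 stood at 18.3 ± 2.26 CPM in WT (SD, n = 3) and 19.4 ± 0.995 CPM in TET1 KO (SD, n = 4), with 97 to 327 counts a library on its pseudogene Mrpl48-ps.

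The stalk recruits translation factors to the ribosome. Mrpl12, its mobile protein, was at 87.1, 88.2 and 83.8 CPM in WT and at 97.2, 88.5, 90.4 and 98.4 CPM in TET1 KO (log2 fold change 0.12, SE 0.11). Mrpl10, which anchors Mrpl12, was at 42.5, 40.8 and 40.7 CPM in WT and at 50.8, 45.9, 46.4 and 44.5 CPM in TET1 KO (log2 fold change 0.18, SE 0.11). For both the groups were separate, with narrow gaps, and the adjusted p from edgeR was 0.528 and 0.326. Mrpl11, at the base of the stalk, was at 26.4, 23.2 and 29.2 CPM in WT and at 29.7, 29.1 and 29.6 CPM in TET1 KO replicates 2 to 4, but at 17.2 CPM in replicate 1. Its log2 fold change was 0.01, and it was 0.17 without replicate 1 and -0.12 with a length offset.

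The 3 paralogs of bacterial S18 all had log2 fold changes below 0, with 0 called. They occupy different places in the ribosome, Mrps18b and Mrps18c in the small subunit and Mrps18a in the large. Mrps18b was at 22.7, 31.6 and 31.3 CPM in WT and at 15.3, 22.1, 26.6 and 24.6 CPM in TET1 KO (log2 fold change -0.36, SE 0.20). Mrps18a was at 23, 26.1 and 26.8 CPM in WT and at 17.5, 21.1, 20.7 and 27 CPM in TET1 KO (log2 fold change -0.23, SE 0.16). Mrps18c was at 24.2, 24.3 and 27.6 CPM in WT and at 14.5, 23.3, 26.5 and 25.2 CPM in TET1 KO (log2 fold change -0.18, SE 0.19). The groups overlapped in all 3, TET1 KO replicate 1 was the lowest liver in each, and the adjusted p from edgeR was 0.259, 0.372 and 0.567. Without that liver the log2 fold changes were -0.22 for Mrps18b, -0.14 for Mrps18a and -0.02 for Mrps18c.

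**Figure D3:**
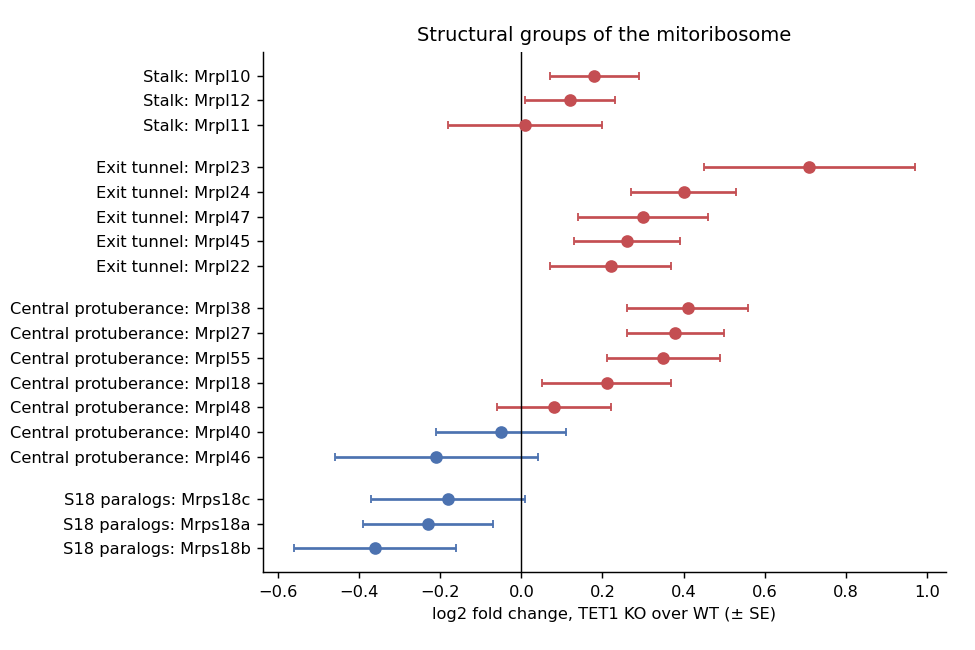
Points are log2 fold changes of TET1 KO over WT and bars are ± SE, for the genes of 4 structural groups. The 5 listed exit tunnel genes lie above 0, the 3 S18 paralogs below, and the listed central protuberance genes on both sides.

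Mrps36, the subunit of 2-oxoglutarate dehydrogenase, was at 3, 2.28 and 2.48 CPM in WT and at 3.32, 3.87, 3.63 and 2.83 CPM in TET1 KO (log2 fold change 0.40, SE 0.22, adjusted p = 0.265 from edgeR). The groups overlapped. It had 45 to 71 counts a library, and its pseudogenes Mrps36-ps1 and Mrps36-ps2 had 22 to 40 and 30 to 60, so its reads may be shared with them.

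The other parts of mitochondrial gene expression were compared in lists of genes, and 0 of the 83 tested genes in them were called by edgeR in either direction. DESeq2 called 3 of the 83 higher and 1 lower, where it called 4.64% of all tested genes higher and 4.81% lower. Of the 5 mitoribosome proteins with other symbols, 3 were above 0. Gadd45gip1, a large subunit protein particular to mitochondria, was at 44.5, 28.9 and 37.3 CPM in WT and at 58, 49.9, 65.9 and 49.5 CPM in TET1 KO (log2 fold change 0.60, SE 0.17, adjusted p = 0.0794 from edgeR and 0.0328 from DESeq2). Assembly factors had a median log2 fold change of 0.09, with 16 of 24 above 0. Mettl17, which acts on the small subunit during assembly, was at 17.9, 13.3 and 14.6 CPM in WT and at 18.6, 23.2, 23.4 and 20.7 CPM in TET1 KO (log2 fold change 0.50, SE 0.15, adjusted p = 0.0913 from edgeR).

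The factors that work with the finished ribosome had medians below 0. Translation factors had a median log2 fold change of -0.12, with 9 of 15 below 0, and mitochondrial aminoacyl-tRNA synthetases one of -0.06, with 11 of 17 below 0. Qrsl1, a subunit of the amidotransferase that makes glutaminyl-tRNA, was at 4.68, 5.31 and 5.24 CPM in WT and at 3.13, 3.45, 3.73 and 2.74 CPM in TET1 KO (log2 fold change -0.64, SE 0.19, adjusted p = 0.0844 from edgeR). Rars2, the arginyl-tRNA synthetase, was at 8.76, 12.3 and 9.88 CPM in WT and at 7.51, 7.96, 7.11 and 7.93 CPM in TET1 KO (log2 fold change -0.44, SE 0.16, adjusted p = 0.132 from edgeR). Both genes had separate groups. Gfm1, the translocation factor of elongation, was named after its values were seen. It was at 58.6, 99.6 and 64 CPM in WT and at 24, 42.8, 42.6 and 56.1 CPM in TET1 KO (log2 fold change -0.84, SE 0.26, adjusted p = 0.0915 from edgeR and 0.03 from DESeq2).

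Genes for transcription and maintenance of mitochondrial DNA had a median log2 fold change of 0.11, with 8 of 12 above 0. Polg2, the accessory subunit of the mitochondrial DNA polymerase, was at 8.22, 8.04 and 5.41 CPM in WT and at 10.4, 11.6, 11.9 and 10.9 CPM in TET1 KO, without overlap (log2 fold change 0.63, SE 0.18, adjusted p = 0.0794 from edgeR and 0.0401 from DESeq2). Of the 10 nuclear regulators, 5 were above 0. Ppargc1b, a coactivator of genes for mitochondrial proteins, was at 5.91, 4.6 and 3.81 CPM in WT and at 14.6, 8.38, 7.62 and 5.85 CPM in TET1 KO (log2 fold change 0.93, SE 0.30, adjusted p = 0.0973 from edgeR and 0.0409 from DESeq2). TET1 KO replicate 4 lay just under the highest WT liver, and without TET1 KO replicate 1, the highest, the log2 fold change was 0.60.

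Set beside other families, the mitoribosome genes had a lower median log2 fold change than the cytosolic ribosomal protein genes, for which it was 0.51, with 75 of 80 above 0 and 5 called higher. The nuclear genes of oxidative phosphorylation had a median of 0.21, with 60 of 79 above 0 and 0 called. The 13 mRNAs encoded in the mitochondria, the templates of the mitoribosome, had a median of 0.40, with 11 above 0 and 0 called, and no gene among them had separate groups. The difference between the families was not tested. The rRNAs of the mitoribosome were at 2928, 1797 and 3217 CPM in WT and 7169, 4084, 4219 and 3166 CPM in TET1 KO for mt-Rnr1 (log2 fold change 0.82, SE 0.34, adjusted p = 0.158 from edgeR). They were at 5915, 3142 and 5145 CPM in WT and 20035, 7747, 9554 and 6463 CPM in TET1 KO for mt-Rnr2 (log2 fold change 1.21, SE 0.45, adjusted p = 0.128 from edgeR). The labels name both poly(A) selection and rRNA depletion for the kit, and how far either step sets the share of these rRNAs was not tested.

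**Figure D4:**
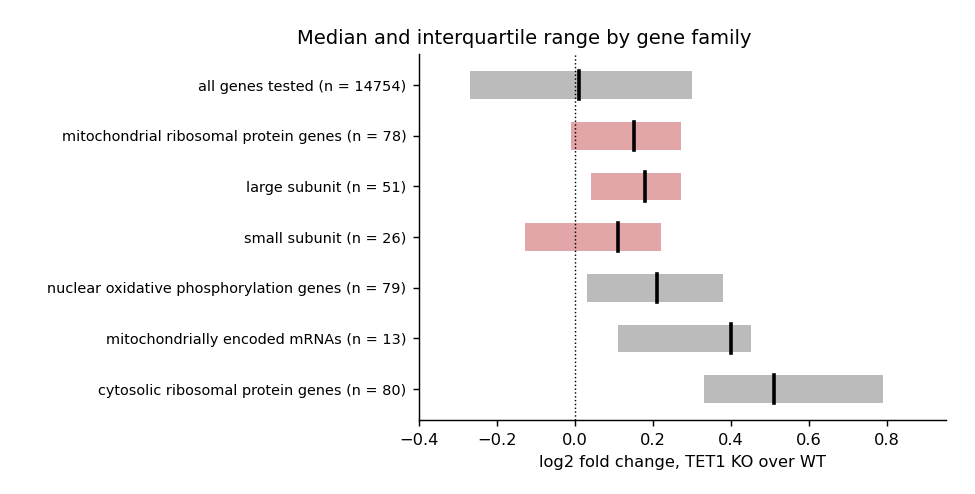
Bars run from the lower to the upper quartile of the log2 fold change of TET1 KO over WT, with a black line at the median, for each gene family and for all tested genes. The family's bar starts near 0 and its median is 0.15, between those of all genes (0.01) and of the cytosolic ribosomal protein genes (0.51).

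Among all tested genes, those of up to 1000 bases had higher fold changes, and 14 of the 77 mitoribosome genes with a length were that short. The Spearman correlation of log2 fold change with exon length was -0.05 over 13469 tested genes and -0.13 over the family. Summed exon lengths of 77 genes ran from 412 bases for Mrpl52 to 8079 for Mrps10, with a median of 1708. The 14 genes of up to 1000 bases had a median log2 fold change of 0.24, and all 1135 tested genes of that length one of 0.17. Between 1000 and 2000 bases the medians were 0.12 for 29 genes of the family and 0.02 for all genes, between 2000 and 4000 bases 0.12 for 22 and -0.02, and above 4000 bases 0.15 for 12 and -0.01. Fitted with an offset for exon length in each library, an alternative chosen after seeing the data, the family had a median of 0.11 with 55 genes above 0, and Mrpl52 a log2 fold change of 0.51 in place of 0.70.

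**Figure D5:**
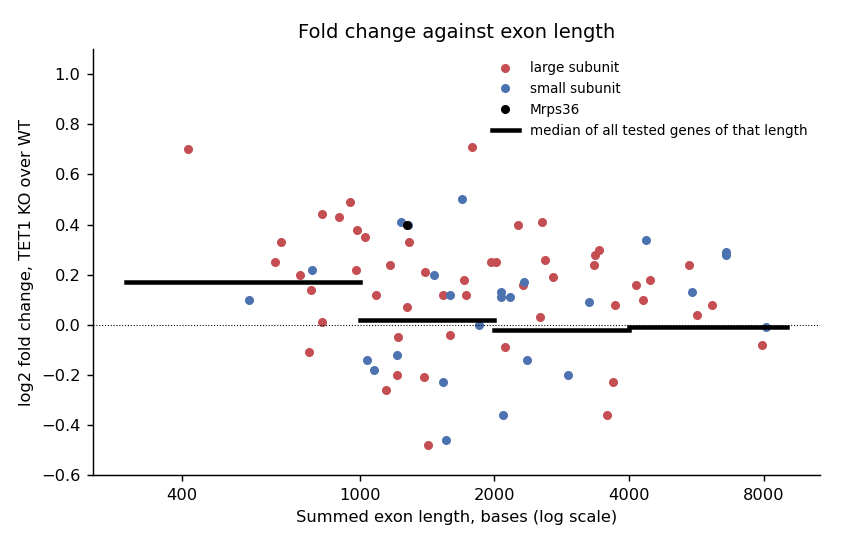
Each point is a gene, with its summed exon length on a log axis and its log2 fold change of TET1 KO over WT, and the black lines are the medians of all tested genes in 4 ranges of length. The line for genes of up to 1000 bases is at 0.17 and the other lines are within 0.02 of 0, while most points lie above them.

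Tet1 itself gave 1 to 4 counts in each of the 7 libraries (exact two-sided permutation test of the counts, doubling the smaller tail, p = 1, with 0.0571 the smallest value that the 35 splits of the mice allow), so it does not check the labels. Markers of hepatocytes, of which 7 of 8 were found, summed to 66060 to 88762 CPM in WT and 77061 to 86738 CPM in TET1 KO. The summed markers of Kupffer cells, stellate cells, T and NK cells, B cells, neutrophils and adipocytes overlapped between the genotypes. Those of endothelial cells, 6 genes, were 121 to 140 CPM in TET1 KO and 145 to 147 CPM in WT, with 0 called. The 5 cholangiocyte markers summed to 29.7 to 37.8 CPM in WT and to 46.1 to 68 CPM in TET1 KO, with 0 called and none at 0. The part of these cells in the values of the mitoribosome genes was not tested.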

How the data were processed

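Read counts per Ensembl gene were deposited by the authors as 1 table per mouse, made with featureCounts 1.5.3 after Trimmomatic 0.36 and GSNAP on GRCm38, as the submitters' processing notes list them. The counts were not normalized, and the strand setting of the counting is not given in the sources used here. Groups and replicate numbers came from the sample labels. Tables were joined by identifier, since 26 symbols differ between them, and 5 repeated entries were dropped. In R 4.3.3, edgeR 4.0.16 kept genes by filterByExpr, scaled libraries by TMM and compared TET1 KO with WT by the quasi-likelihood test over all 14754 genes, with no covariate. DESeq2 1.42.0 was the alternative test, and both were tested on simulated data with changed genes. At a log2 change of 0.5, edgeR recovered 3 of 66 genes and DESeq2 8 of 66. At a change of 1 they recovered 40 and 48 of 67, and they made 3 and 15 false calls. Other scalings and low-count filters, a block on the replicate number, robust dispersions, leaving out each liver and a length offset were also tried. Levels are TMM-scaled CPM. Exon lengths, the union of all annotated exons of a gene, came from GENCODE M1, made on an earlier assembly, by identifier (91.3% of tested genes). Coordinates and promoter windows came from RefSeq GRCm38.p6 by symbol. Library totals of 15005277 to 22746138 counts gave the family 45 to 2128 counts a gene and library and a median SE of 0.14 on the log2 fold change.

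The genes named are the 5 with the smallest p in each direction, the 3 highest and 3 lowest in CPM per kilobase, the highest and lowest fold change of each subunit, 4 structural groups, Mrps36, the gene with the smallest p in each pathway list, and Tet1. Members and lists were chosen with earlier results of these data known. Overlapping and antisense genes and pseudogene copies remain uncertain.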

Additional observations from a re-analysis of the deposited data

Results flagged for a closer look

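Within the TET1 KO group of 4 livers, 9 of 85 examined values had 1 liver far from the others, by a gap that took more of the group's range than Dixon's critical value for 4 samples, which chance alone exceeds in about 1 group in 20. The group of 3 WT livers was not tested. TET1 KO replicate 1 was the low liver in 6 genes. The gap took 0.946 of the range for Mrpl11 (17.2 CPM, against 29.1 to 29.7 CPM in the other livers), 0.94 for Mrps22 (10.6, against 16.7 to 17.1), 0.883 for Mrpl2 (47.7, against 50.9 to 51.4), 0.873 for Mrpl28 (26.6, against 33 to 33.9), 0.852 for Mrps9 (11.1, against 19.2 to 20.6) and 0.847 for Mrps24 (41.5, against 46.1 to 46.9). TET1 KO replicate 4 was the low liver for Mrpl14 (0.864 of the range, 55.6 CPM against 71.4 to 73.9) and Mrpl51 (0.864, 73.4 CPM against 80.5 to 81.6). TET1 KO replicate 3 was the high liver for Mrpl24 (0.84, 87.6 CPM against 80.6 to 81.7).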

How the results depend on the processing

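The number of mitoribosome genes called higher, 0 with edgeR, was 2 with DESeq2, 1 with the replicate number as a block, 4 at an adjusted p under 0.1 and 0 to 1 when single livers were left out (1 without TET1 KO replicate 4), and the number called lower was 0 in every alternative run. The median log2 fold change of 0.15 was 0.05 with library size only and 0.10 to 0.18 when single livers were left out, lowest without WT replicate 2. Genes with every TET1 KO liver above every WT liver numbered 21, 12 with library size only and 18 to 33 when single livers were left out, which makes separation easier (12.6% to 20.3% of all tested genes). The highest came without WT replicate 1. Those below numbered 2, 4 with library size only (5.13%, against 15.2% of all tested genes) and 2 to 7 when single livers were left out (12.9% to 20.3% of all tested genes), with 5 without TET1 KO replicate 4 (6.41%, against 16.8%) and 7 without WT replicate 1 (8.97%, against 20.3%). The ratio of summed CPM, 1.12, was 1.05 with library size only. Of the pathway genes, 0 were called higher and 0 lower, 3 and 1 with DESeq2, 3 and 2 with the block, and 0 to 2 higher and 0 to 1 lower when single livers were left out. For the block and the fits without single livers, the share of all tested genes called was not taken. The numbers of pathway and mitoribosome genes called in those fits therefore have no background to be read against. The replicate block rests on numbers that do not pair the samples, since same-numbered livers deviated from their group means with correlations of 0.209, -0.123 and -0.0964. With the block Mrpl52 had an adjusted p of 0.0272.

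Of 540 fold changes of the named genes under an alternative, 516 kept their direction and side of the threshold and 10 passed it. The other 14 changed sign, in 4 genes. When single livers were left out, Mrpl11 ranged from -0.08 to 0.17, Mrpl40 from -0.14 to 0.07, Mrpl46 from -0.34 to 0.00 and Mrpl48 from -0.02 to 0.13. Mrpl11 went to -0.00 with DESeq2 and with its size factors, -0.08 with library size only, -0.01 with no filter, -0.09 with the replicate block and -0.12 with the length offset, and Mrpl48 to -0.01 with library size only. Mrpl40 and Mrpl46 changed sign only without TET1 KO replicate 1. The cause was not tested. Without WT replicate 2, Mrpl18 went from 0.21 to 0.11, Mrpl22 from 0.22 to 0.10, Mrpl36 from 0.43 to 0.27, Mrpl42 from 0.33 to 0.20, Mrpl55 from 0.35 to 0.23 and Rars2 from -0.44 to -0.29. Among the 78 mitoribosome genes, Mrps36 and Mrpl23 had the fewest counts, and the SE of a log2 fold change reached 0.26.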

Other observations

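Many of the genes had a neighbour that starts close by on the opposite strand, which does not by itself show a shared promoter. Of the 69 genes with a RefSeq window, 26 (37.7%) had an annotated start of another gene on the opposite strand, pointing away from it, within 1000 bases, against 12.3% of the 27025 genes in the table. Their median log2 fold change was 0.15, and that of the others 0.12. One such pair joins both subunits, Mrpl46 of the large and Mrps11 of the small, whose starts lie 42 bases apart. Their log2 fold changes were -0.21 and 0.11. In TET1 KO replicate 1, Mrpl46 was at 6.89 CPM and Mrps11 at 20.5 CPM, the lowest and the highest of the 7 livers, respectively. Tfam, the packaging protein of mitochondrial DNA, was at 33.9, 41.9 and 34.1 CPM in WT and at 25.8, 26.4, 26.4 and 32.3 CPM in TET1 KO (log2 fold change -0.40, SE 0.14, adjusted p = 0.113 with edgeR), and the groups did not overlap. It was named after its values were seen.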
